A study of Mus musculus with 12 samples.

Results

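*Zscan4c*, *Zscan4d*, *Zscan4f*, *Tcstv1*, *Tcstv3* and *Zfp352* are genes that mark the two-cell-like state of mouse embryonic stem cells (ESCs). They were chosen by symbol, as known markers of that state and with earlier results of these data in view, and all 6 were found among the 24881 gene symbols of the table. RNA had been sequenced from R1 mouse ESCs that carry the FUCCI reporters, fluorescent proteins whose colours tell G1 from later cell cycle phases, and only G1 cells were collected by sorting. The 4 groups were wild-type (WT) ESCs in serum, P53-/- ESCs in serum, WT ESCs in 2i and P53-/- ESCs in 2i, each with 2 libraries of total RNA depleted of ribosomal RNA. All groups share the R1 background, the reporters and the sort, and the P53-/- cells are clones made with CRISPR/Cas9 against a common exon of *Trp53*. Serum medium contained LIF, and 2i medium was serum-free with LIF and inhibitors of MEK (PD0325901) and of GSK3 (CHIR99021). The study used 2 P53-/- clones for RNA sequencing, and no column of the table names the clone. Libraries are numbered here within a group by their order in the table. Whether they came from separate cultures is not given in the sources used here, so every p-value measures only the spread between these libraries, which may be technical.

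A small and changing fraction of cultured ESCs passes through a state in which genes of the mouse two-cell embryo, and the endogenous retrovirus MERVL, are switched on. The transcription factor DUX switches on most of these genes, and chromatin repressors such as TRIM28, KDM1A and the variant PRC1.6 complex keep them silent in the other cells. *Zscan4* genes encode zinc finger proteins with a SCAN domain that take part in telomere lengthening and genome stability. *Tcstv1* and *Tcstv3* are two-cell-stage genes whose products are linked to telomere maintenance, and *Zfp352* encodes a zinc finger protein of the early embryo. A bulk library holds RNA of many cells, so that fewer cells in the state and less RNA per cell in the state cannot be told apart.

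*Zscan4c*, *Zscan4d* and *Zscan4f* are close copies of one another, and their promoters are shown because the likeness bears on how far each copy can be measured separately. The sequences are the 250 bases before the annotated start in RefSeq, build GRCm38.p6, written 5′ to 3′ on the strand of the gene. A promoter sequence was matched for 4 of the 6 genes. Capitals mark TATAAA in the *Zscan4* promoters and copies of a 12-base repeat in the *Zfp352* promoter. The windows are chr7:11005495-11005744 (plus strand) for *Zscan4c*, chr7:11166149-11166398 (minus strand) for *Zscan4d*, chr7:11397665-11397914 (plus strand) for *Zscan4f* and chr4:90218570-90218819 (plus strand) for *Zfp352*.
Zscan4c: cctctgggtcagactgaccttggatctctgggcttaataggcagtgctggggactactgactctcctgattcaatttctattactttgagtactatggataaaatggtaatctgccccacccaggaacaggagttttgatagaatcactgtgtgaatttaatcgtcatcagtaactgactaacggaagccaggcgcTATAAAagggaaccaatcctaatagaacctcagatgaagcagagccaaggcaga
Zscan4d: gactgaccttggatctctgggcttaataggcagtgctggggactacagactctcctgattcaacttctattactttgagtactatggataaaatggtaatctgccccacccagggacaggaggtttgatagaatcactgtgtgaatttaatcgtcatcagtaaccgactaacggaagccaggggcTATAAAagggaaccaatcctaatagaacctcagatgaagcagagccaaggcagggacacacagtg
Zscan4f: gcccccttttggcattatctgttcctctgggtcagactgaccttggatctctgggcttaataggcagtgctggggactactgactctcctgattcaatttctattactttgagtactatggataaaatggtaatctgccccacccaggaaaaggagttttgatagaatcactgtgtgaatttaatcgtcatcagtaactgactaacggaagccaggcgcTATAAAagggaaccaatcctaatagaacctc
Zfp352: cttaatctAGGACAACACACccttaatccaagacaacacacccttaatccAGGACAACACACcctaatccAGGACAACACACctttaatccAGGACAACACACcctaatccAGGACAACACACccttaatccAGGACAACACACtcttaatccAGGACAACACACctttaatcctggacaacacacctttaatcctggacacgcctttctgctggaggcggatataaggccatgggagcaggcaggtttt

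The *Zscan4c* and *Zscan4f* promoters were 99.6% identical over their aligned bases, and that of *Zscan4d* was 97.1% identical to *Zscan4c* and 96.8% to *Zscan4f*. TATAAA, the core of the TATA box, lay 54 bases before the start of *Zscan4c*, 65 before that of *Zscan4d* and 31 before that of *Zscan4f*, and these letters were found on either strand in 12.4% of 32851 promoters of the same length. They were not in the *Zfp352* window, which instead held 7 copies of AGGACAACACAC, a repeat found in no other promoter of the 32851. The letters TGCACAC (a ZSCAN4 motif) and a P53 half-site were in none of the 4 windows on either strand. The share of all promoters that held them was 3.67% and 7.13%, and no match says only that these letters are not there.

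The likeness continues in the transcripts. The longest transcripts of *Zscan4c* and *Zscan4f* were 99.6% identical, and those of *Tcstv1* and *Tcstv3* 90.2%. Of all 50-base stretches of a transcript, 85.5% in *Zscan4c*, 95.3% in *Zscan4f* and 49.6% in *Zscan4d* also occurred in another gene, against 31.4% in *Tcstv3*, 16.8% in *Tcstv1* and 7.09% in *Zfp352*. How the authors divided reads among such copies is not given in the sources used here, so that values of single *Zscan4* copies are uncertain, while *Zfp352* has the sequence most its own.

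Levels are given as FPKM (fragments per kilobase, corrected for the depth of each library). For *Trp53*, the targeted gene, FPKM in serum was 77.6 and 75.1 with P53 intact and 16.8 and 3.68 in the knockout. The corresponding 2i libraries had 26.8 and 33.7 with P53 intact, 7.25 and 1.88 in the knockout. Each P53-/- library was thus below both WT libraries of its culture, and in each culture the P53-/- library numbered 2 was the lower one. The 8 pluripotency markers summed to an FPKM of 1715 to 2086 in the 8 libraries, with none at 0. Among them *Dppa3*, a maternal factor of the early embryo, was called higher on loss of P53 in 2i, by 3.82 on the log2 scale (limma adjusted p = 0.00158). *Klf4*, a naive pluripotency factor, was called lower there, with a log2 fold change of -0.96 (limma adjusted p = 0.00782). In that contrast 7 of the 8 markers had a negative log2 fold change, so the sum does not show unchanged levels. The 7 primitive endoderm markers summed to 1.28 to 4.36, 7 trophoblast markers to 8.03 to 16.3 and 8 fibroblast feeder markers to 1.75 to 11.7. Of the feeder markers, *Col3a1* and *Postn* were at 0 in every library. *Thy1*, called lower in 2i in both genotypes, made up most of the sum in serum. *Pdgfrb* was called higher in 2i in WT cells (log2 fold change 1.25, limma adjusted p = 0.0252) but not in P53-/- cells (0.21). Depth estimated from the lowest FPKM steps ran from 5240000 to 13220000 fragments, up to a factor common to all libraries.

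Levels of the members were low in most libraries. *Zscan4d*, the most abundant *Zscan4* copy among the members, had an FPKM of 0.584 and 0.661 in WT serum, 0.250 and 4.31 in P53-/- serum, 1.03 and 1.97 in WT 2i, with 0.798 and 7.08 in P53-/- 2i. It was above 0 in all 8 libraries, and its highest values stood in 1 library of each P53-/- group. *Zscan4c* had an FPKM of 0.269 and 0.127 in WT serum, 0 and 0.952 in P53-/- serum, 0.446 and 1.02 in WT 2i, with 0.230 and 2.29 in P53-/- 2i. *Zscan4f* had an FPKM of 0 and 0.0808 in WT serum, 0 and 1.16 in P53-/- serum, 0.141 and 0.431 in WT 2i, with 0.350 and 1.04 in P53-/- 2i. *Zscan4d* was above the other copies in every library. *Zscan4f*, unlike *Zscan4c* and *Zscan4d*, had its highest value in P53-/- serum. So did *Zscan4b*, not a member, with 0.510 there and 0.433 in the second P53-/- 2i library. For *Zscan4f* the values in the second P53-/- serum and second P53-/- 2i libraries stood for about 20.2 and 10.2 fragments.

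*Tcstv3*, the most abundant of the 6 on average, had an FPKM of 0.608 and 0.979 in WT serum, 0 and 1.04 in P53-/- serum, 2.46 and 5.73 in WT 2i, with 1.35 and 17.6 in P53-/- 2i. Every 2i library was above every serum library for this gene. *Tcstv1* had an FPKM of 0.516 and 0.199 in WT serum, 0.113 and 1.21 in P53-/- serum, 1.4999 and 4.05 in WT 2i, with 1.10 and 10.6 in P53-/- 2i. Its lowest 2i library was just under its highest serum library, both of them P53-/-. *Zfp352* was listed at 0 in both WT serum libraries and had an FPKM of 0 and 0.0959 in P53-/- serum, 0.0561 and 0.343 in WT 2i, with 0.0464 and 0.659 in P53-/- 2i. These values were near the detection limit, at about 8.11 fragments in the highest library and 1.01 to 4.09 in the other libraries above 0.

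The zeros fell in serum. Of the 6 members, 4 were listed at 0 in the first P53-/- serum library, 2 and 1 in the WT serum libraries, and none in the second P53-/- serum library or in any 2i library. *Zfp352* was at 0 in 3 libraries, *Zscan4f* in 2, *Zscan4c* and *Tcstv3* in 1 each, and *Zscan4d* and *Tcstv1* in none.

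**Figure D1:**
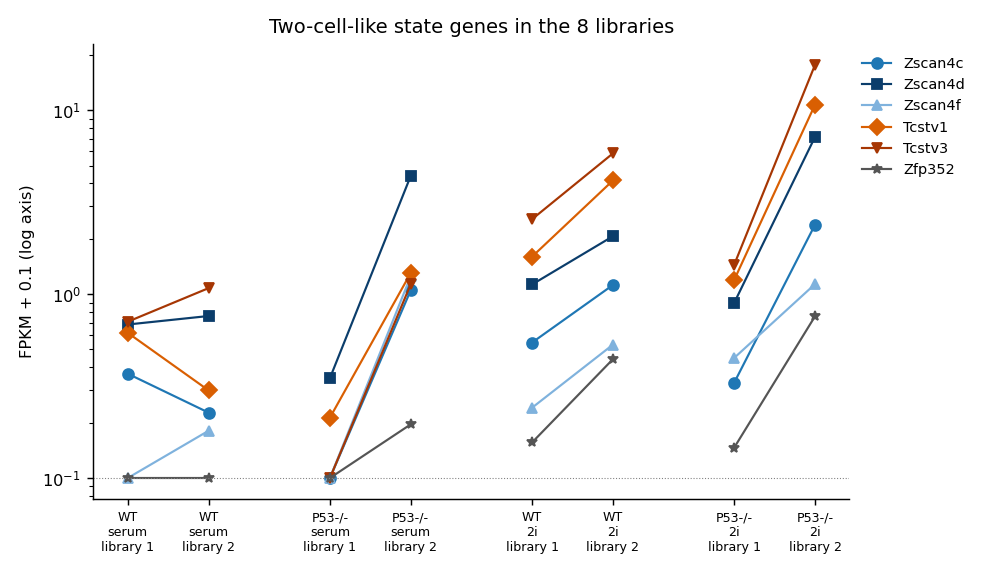
FPKM + 0.1 on a log axis for the 6 two-cell-like state genes in each of the 8 libraries, with a line joining the libraries of a group and the dotted line marking an FPKM of 0. The second P53-/- 2i library holds the highest value of 5 of the 6 genes, and the first P53-/- serum library holds 4 of them at 0.

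The members moved together between libraries of the same group. *Zscan4c*, *Zscan4d* and *Zscan4f* share much of their sequence, so the counts below are not of 6 independent measurements. In P53-/- 2i, the second library was above the first for 6 of 6 members, by a median of 2.93 on the log2(FPKM + 0.1) scale. In P53-/- serum it was above for 6 of 6, by a median of 3.45, and in WT 2i for 6 of 6, by a median of 1.16. The WT serum libraries differed least, with 3 of the 5 members above 0 higher in the second and a median difference of 0.15. Among all genes tested the second library was the higher one for 46.8% to 52.7%. The gap passed 4-fold for 5 of 6 members in P53-/- 2i and for 5 of 6 in P53-/- serum, where 0.501% and 0.883% of all genes had such a gap in that direction, and for none in WT 2i or WT serum, where 0.549% and 1.3% of genes had one. *Zscan4f* in P53-/- 2i and *Zfp352* in P53-/- serum were the exceptions, at 2.52-fold and 1.96-fold on this scale. As deposited, *Zfp352* was 6.12-fold higher in the second WT 2i library (FPKM of 0.0561 and 0.343), against 2.84-fold on this scale.

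Few genes of the table varied so much within groups. The residual SD of log2(FPKM + 0.1) over the 4 groups was 1.63 for *Zscan4c*, 1.70 for *Zscan4d*, 1.58 for *Tcstv1* and 1.84 for *Tcstv3*, against a median of 0.206 over 12572 genes. Between 1.02% and 1.26% of genes had a larger one. No comparison with genes of a like low level was made. These shares, and those for a 4-fold gap, therefore do not show a spread particular to the members. The sum of the 6 members was 1.98 and 2.05 FPKM in WT serum, 0.363 and 8.75 in P53-/- serum, 5.63 and 13.5 in WT 2i, with 3.87 and 39.3 in P53-/- 2i. The libraries of each P53-/- group thus lay on both sides of both WT libraries of the same culture. In each of the 4 groups the library with the higher sum was the shallower one by estimated depth, and WT serum had the widest gap in depth with nearly equal sums. In the P53-/- groups the higher library was also the one with less *Trp53*. In P53-/- 2i, 8 of 8 G2/M genes were lower in the second library, by a median of -0.23 on the log2(FPKM + 0.1) scale, whereas in P53-/- serum 3 of 8 were higher and in WT 2i 6 of 8. The part of these in the result was not tested, and whether the split lies between clones cannot be told, since the libraries are not assigned to clones.

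Other genes of the two-cell-like state were also mostly higher in the second library of P53-/- serum, WT 2i and P53-/- 2i, by smaller medians than the members. Of 50 listed, 37 were in the table and 34 had a value above 0. Their summed FPKM was 5.02 and 7.24 in WT serum, 1.91 and 26.1 in P53-/- serum, 9.36 and 22.3 in WT 2i, with 8.90 and 90.2 in P53-/- 2i. The second library was the higher one for 28 of the 30 above 0 in P53-/- 2i, 23 of 25 in P53-/- serum, 21 of 26 in WT 2i and 12 of 23 in WT serum. The median difference was 2.09, 1.14, 0.94 and 0.04 on the log2(FPKM + 0.1) scale. The difference passed 4-fold for 16 of 30 in P53-/- 2i, 11 of 25 in P53-/- serum, 3 of 26 in WT 2i and 1 of 23 in WT serum. Of all genes, 0.501%, 0.883%, 0.549% and 1.3% had such a gap. The second P53-/- 2i library held the highest value of 23 of the 34, as of 5 of the 6 members, while it held the highest value of 12.2% of all genes. *Dux*, the upstream activator and named here after its values were seen, was listed at 0 in 7 of 8 libraries and had an FPKM of 0.0966 in the second WT 2i library. No gene among the lists of activators, repressors, telomere genes, or markers of pluripotency, feeders, endoderm, trophoblast and G2/M phase had a second library more than 4-fold above the first in any group on the FPKM + 0.1 scale. As deposited, *Krt7* of the trophoblast markers had an FPKM of 0.165 and 0.883 in WT 2i.

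**Figure D2:**
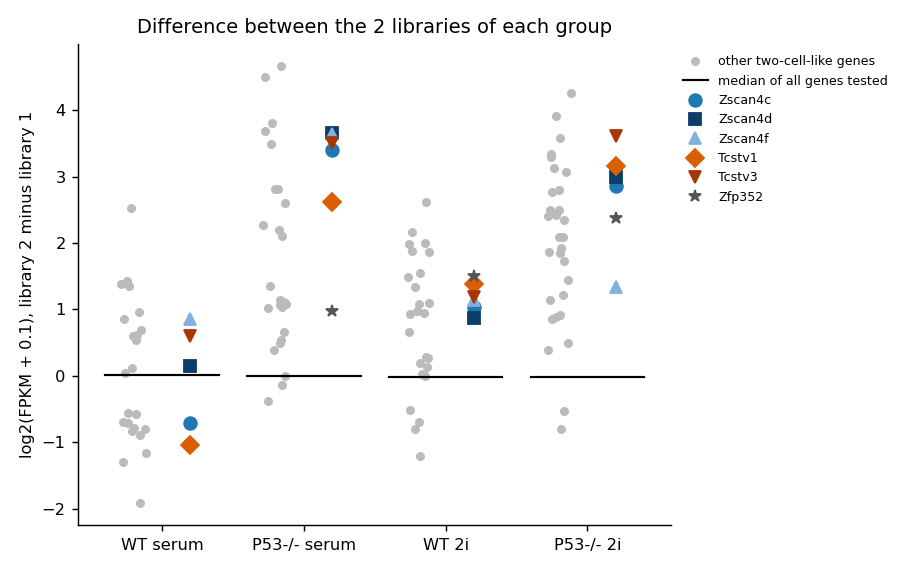
Difference in log2(FPKM + 0.1) between the libraries of each group, second minus first, for the 6 members (coloured) and the other two-cell-like state genes above 0 (grey), with the median of all genes tested as a black line. The members sit above 0 in P53-/- serum, WT 2i and P53-/- 2i and on both sides of 0 in WT serum.

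The first comparison asks what loss of P53 did to these genes in each culture. Of the members, 4 passed the filter of a mean FPKM of at least 0.5, and *Zscan4f* (mean 0.399) and *Zfp352* (mean 0.150) did not. *Zscan4c* (mean 0.667) passed only through its value of 2.29 in the second P53-/- 2i library. Its spread and tests therefore rest on a filter met through that library. Calls required a limma adjusted p under 0.1 together with a change of more than 1.5-fold. In 2i, 0 of 4 members were called, where 10.3% of all genes were, and 0 had an unadjusted p under 0.05. The log2 fold changes of P53-/- over WT were 0.18 for *Zscan4c*, 0.73 for *Zscan4d*, 0.48 for *Tcstv1* and 0.39 for *Tcstv3*, with limma adjusted p-values of 0.957, 0.769, 0.845 and 0.897. The 95% intervals were wide, as that of *Tcstv3* from -2.71 to 3.49, so that neither a large rise nor a large fall could be told from no change. The P53-/- and WT values overlapped for 6 of 6 members in 2i, where both P53-/- libraries were above WT for 29% of all genes and below WT for 24.7%.

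In serum, 0 of 4 members were called, with 0 at an unadjusted p under 0.05, where 1.02% of all genes were called. The log2 fold changes were 0.17 for *Zscan4c*, 0.78 for *Zscan4d*, 0.30 for *Tcstv1* and -1.37 for *Tcstv3*, with limma adjusted p-values of 0.984, 0.854, 0.955 and 0.743. All 6 members overlapped between genotypes again, in a culture in which 25.7% of genes had both P53-/- libraries above WT and 21.8% both below. The difference between the P53 effects in 2i and in serum was called for 0 of 4 members, with 0 at an unadjusted p under 0.05, and for 0.207% of all genes. Its largest estimate was 1.77 for *Tcstv3* (standard error 1.89, limma adjusted p = 0.729). Leaving out 1 library turned the sign of the P53 effect of each tested member in both cultures. In 2i the sign turned without the second P53-/- library for all 4, and also without the first WT library for *Zscan4c*, *Tcstv1* and *Tcstv3*. In serum it turned without the second P53-/- library for *Zscan4c*, *Zscan4d* and *Tcstv1*, without the second WT library for *Zscan4c* and *Tcstv1*, and without the first P53-/- library for *Tcstv3*. In 2i the effect of *Tcstv3* ran from -1.41 to 2.20 and that of *Zscan4d* from -0.77 to 2.23, and no member was called in any of these fits.

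The second comparison asks how the genes differed between 2i and serum. In WT cells, both 2i libraries were above both serum libraries for 6 of 6 members, as for 40% of the genes that passed the filter. *Zscan4f* and *Zfp352*, which did not pass it, are among the 6, and their separation rests on single fragments. In the first WT 2i library *Zfp352* stood for about 1.01 fragments, against 0 in both WT serum libraries. *Zscan4f* stood for about 2.04 there, against 0 and 1.05 in WT serum. *Tcstv1* was called higher in 2i, 1 of 4 members against 27.2% of all genes called higher. Its log2 fold change was 2.59 (standard error 1.16, limma adjusted p = 0.0878), and its 95% interval of -0.10 to 5.27 included 0. The other changes were 2.14 for *Tcstv3*, 1.44 for *Zscan4c* and 1.08 for *Zscan4d*, with limma adjusted p-values of 0.199, 0.347 and 0.477. The call of *Tcstv1* was lost without either library of WT 2i or of WT serum. In a fit of the WT libraries alone, where the spread of the P53-/- groups does not enter, 4 of 4 members were called higher in 2i, with limma adjusted p-values of 0.0780 for *Zscan4c*, 0.0693 for *Zscan4d* and 0.0203 for *Tcstv3*. That fit called 27.3% of all genes higher in 2i. *Zscan4c* entered it through the filter over all 8 libraries, and its mean FPKM over the WT libraries alone was under 0.5.

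In P53-/- cells, *Tcstv1* and *Tcstv3* were called higher in 2i, 2 of 4 members against 28% of all genes. The log2 fold change of *Tcstv3* was 3.91 (standard error 1.34, limma adjusted p = 0.0343) and that of *Tcstv1* 2.77 (standard error 1.16, limma adjusted p = 0.0690). *Zscan4c* and *Zscan4d* had changes of 1.45 and 1.03, with limma adjusted p-values of 0.338 and 0.493. Both P53-/- 2i libraries were above both P53-/- serum libraries for *Tcstv3* alone, 1 of 6 members, as for 39.7% of all genes. Taken in column order, each P53-/- 2i library was above the P53-/- serum library of the same number for every member but *Zscan4f*. Its second 2i library was below its second serum library, with an FPKM of 1.04 against 1.16. Whether this order matches the clones is not known, and no paired test was run. No member was called without the second P53-/- 2i library or without the first P53-/- serum library, 4 were called without the second P53-/- serum library, and 1 without either WT serum library. A fit of the P53-/- libraries alone called none. Summed before the fit, the *Tcstv* genes had a change of 3.59 (limma adjusted p = 0.0417) in P53-/- cells and of 2.34 (limma adjusted p = 0.153) in WT cells, and the sum of 5 *Zscan4* copies was called in none of the contrasts.

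**Figure D3:**
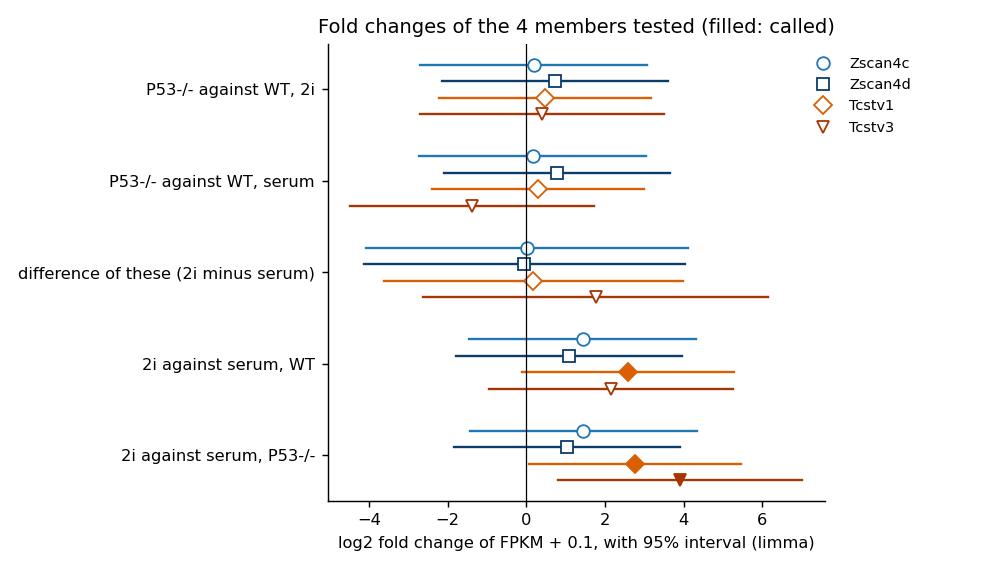
log2 fold change of FPKM + 0.1 with its 95% interval from limma for the 4 members tested, in 5 contrasts, with filled symbols for called genes. All 8 intervals for loss of P53 span 0, and the called values are those of Tcstv1 in both genotypes and of Tcstv3 in P53-/- cells.

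The balance between the families, a ratio chosen after its values were seen and given without a test, separated the cultures. The summed FPKM of *Tcstv1* and *Tcstv3* over that of 5 *Zscan4* symbols was 0.847 and 0.911 in the WT serum libraries, and the P53-/- serum libraries had 0.315 and 0.244. In 2i the WT ratios were 2.27 and 2.29 and the P53-/- ratios 1.40 and 2.14. Both P53-/- ratios were below both WT ratios in each culture, but that of the second P53-/- 2i library lay closer to WT than to the other P53-/- library. The ratio of the first P53-/- serum library rests on about 1.75 fragments of *Tcstv1*, with *Tcstv3* at 0. The 4 ratios in 2i were all above the 4 in serum, as were the *Tcstv* sums themselves, while the *Zscan4* sums of the cultures overlapped. In the second P53-/- serum library the *Zscan4* copies summed to 9.18 and the *Tcstv* genes to 2.24, whereas in the second P53-/- 2i library they summed to 13.2 and 28.3.

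Of 9 other two-cell-like genes that passed the filter, none was called for loss of P53 in 2i or serum, beside 10.3% and 1.02% of all genes, and none was at an unadjusted p under 0.05. *Usp17lb*, a gene of the Usp17 family of deubiquitinases, was the only one called in any contrast, 1 of 9 beside 27.2% of all genes called higher in WT 2i. Its WT libraries had an FPKM of 0.104 and 0.197 in serum, then 2.56 and 2.60 in 2i, and its log2 fold change was 3.45 (limma adjusted p = 0.0310). Its FPKM in P53-/- cells was 0.167 and 1.78 in serum and 1.06 and 11.3 in 2i, so that the split between libraries of a group was present here too. The median log2 fold change of the 9 was 1.15 for loss of P53 in 2i, 0.25 in serum and 1.23 for 2i over serum in WT cells. The 4 members had 0.43, 0.23 and 1.79, and all genes tested 0.02, 0.02 and -0.02. Of the 9, *Tmem92* passed the filter only through its FPKM of 2.93 in the second P53-/- 2i library.

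The genes whose profile over the 8 libraries was nearest to that of the members were *Gm4971*, *Gm6803*, *Gm8994*, *Gm5662*, *Gm13119*, *Usp17le*, *Gm2016* and *Tmem92*. Their root mean square distance to the mean profile of the 4 members, each centred on its own mean of log2(FPKM + 0.1), ran from 0.345 to 0.661, against a median of 1.63 over 12568 genes. *Gm5662*, *Usp17le*, *Gm2016* and *Tmem92* were in the list of other two-cell-like genes, and the rest were not. *Tmem92*, like *Zscan4c* among the members, passed the filter only through the second P53-/- 2i library. *Gm4971*, the nearest, had an FPKM of 0.238 and 0.303 in WT serum, 0 and 0.916 in P53-/- serum, 0.774 and 2.16 in WT 2i, with 0.319 and 2.82 in P53-/- 2i. Its likeness to the members is what it was chosen for. *Gm5662* reached the highest level of the 8, with an FPKM of 2.09 and 19.1 in P53-/- 2i beside 0.136 and 5.91 in P53-/- serum.

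**Figure D4:**
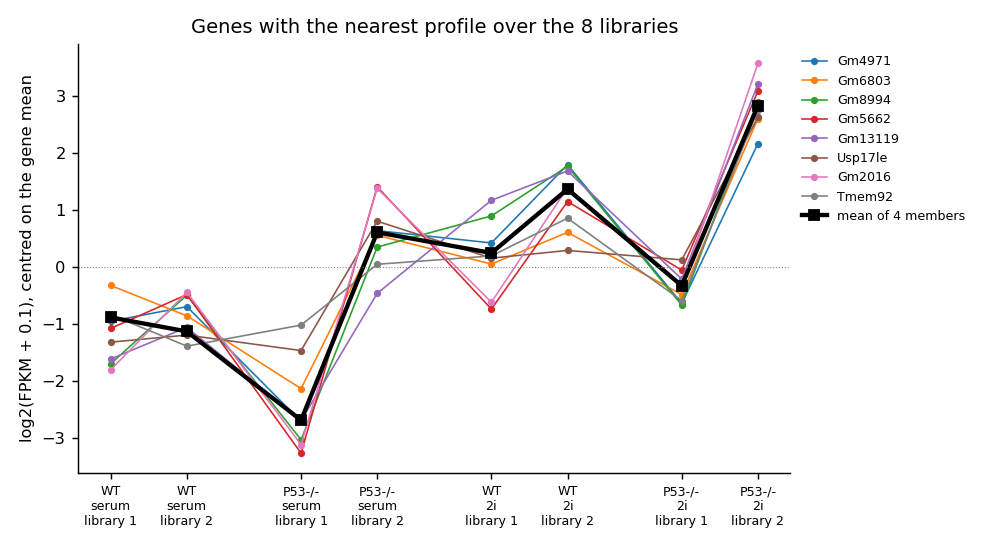
log2(FPKM + 0.1) centred on the mean of each gene over the 8 libraries, for the mean of the 4 members (black) and the 8 genes nearest to it (coloured). Every line peaks in the second P53-/- 2i library, and most are lowest in the first P53-/- serum library.

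Known regulators of the state were tested in the same fit. Of 6 activators tested, 4 were called for loss of P53 in 2i, the targeted *Trp53* among them, beside 10.3% of all genes. *Gata2* (log2 fold change 1.97, limma adjusted p = 0.0443) and *Nelfa* (0.71, limma adjusted p = 0.0475) rose. *Tbx3* (-0.66, limma adjusted p = 0.0340) and *Trp53* itself (-2.98, limma adjusted p = 0.0547) fell. None was called in serum, beside 1.02% of all genes. There 1 of the 6 had an unadjusted p under 0.05, namely *Trp53* (-3.26, limma adjusted p = 0.150). Between cultures 4 of 6 were called lower in 2i in WT cells and 3 of 6 in P53-/- cells, beside 28.6% and 30.1% of all genes. *Dppa2* and *Dppa4*, which act upstream of *Dux*, were called lower in 2i than in serum, with log2 fold changes of -1.35 and -1.24 in WT cells and -1.37 and -1.36 in P53-/- cells. The members called in the same comparison were higher in 2i.

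Of 21 repressors tested, none was called for loss of P53 in 2i, beside 10.3% of all genes, with 4 at an unadjusted p under 0.05. In serum 1 was called, beside 1.02% of all genes, namely *Mir34a*, a microRNA gene listed at 163 and 490 FPKM in WT serum and at 0 in the other 6 libraries. Between cultures, 11 repressors were lower and 0 higher in WT 2i than in WT serum, and 7 were lower and 2 higher in P53-/- cells. Of all genes, 28.6% were called lower and 27.2% higher in WT 2i, and in P53-/- cells 30.1% were called lower and 28% higher. The 11 included *Mir34a*, which passed the filter only through WT serum. Also called lower were *Myc*, with log2 fold changes of -5.58 in both genotypes, and *Ncl*, with -3.43 in WT and -3.33 in P53-/-. *Max* of the PRC1.6 complex had changes of -1.71 and -2.10. *Rybp*, a PRC1 subunit, had changes of -2.08 and -1.88, and *Mga*, the scaffold of PRC1.6, of -1.10 and -1.09.

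Of 12 telomere and recombination genes tested, 1 was called for loss of P53 in 2i, beside 10.3% of all genes. *Tert*, the catalytic subunit of telomerase, was lower, with a log2 fold change of -1.58 (limma adjusted p = 0.00790). In serum none was called, beside 1.02% of all genes, with 4 at an unadjusted p under 0.05. Between cultures in WT cells 2 were called higher in 2i and 4 lower, beside 27.2% and 28.6% of all genes. *Tert* (1.23) and *Tinf2* (0.87), a shelterin subunit, were higher in 2i. Among those lower were *Terf1* (-2.42), another shelterin subunit, and *Rad50* (-0.73), which takes part in the repair of DNA breaks. *Pot1b* (-1.01), which binds the telomeric single strand, was also lower. In P53-/- cells *Tinf2* was again called higher in 2i (1.10), while *Tert* was not called (0.24, limma adjusted p = 0.353).

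A list of 8 G2/M genes, used to look for cells of other phases in the sort, summed to 652 and 666 FPKM in WT serum, 666 and 630 in P53-/- serum, 315 and 343 in WT 2i, with 565 and 479 in P53-/- 2i. Of these, 6 were called higher in P53-/- 2i than in WT 2i, beside 4.36% of all genes, and 8 lower in WT 2i than in WT serum, beside 28.6%. Their part in the differences between cultures was not tested.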

How the data were processed

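Libraries of G1-sorted ESCs were analysed in 4 groups of 2 (genotype by culture). The authors deposited FPKM values, 1 column per library, named by genotype and culture only. The submitters' processing notes name STAR, Cufflinks, DESeq2 and mm9, with no role or version, and the annotation is not given in the sources used here. FPKM values hold no counts, so depth was estimated from the steps between low values. The 4 other samples (P21-/- and its WT) were not analysed here.

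Genes whose FPKM averaged 0.5 or more (12572) were tested after log2 transformation with a pseudocount of 0.1. The limma package (version 3.58.1, under R 4.3.3) fitted all 4 groups at once, with an eBayes trend and Benjamini-Hochberg adjustment across these genes. Fold changes on this scale understate those of low genes. Promoters came from RefSeq and transcripts from GENCODE (GRCm38), matched by symbol, with Python 3.11.15 and biopython 1.88. The pipeline was tested on simulated data. Members and lists were chosen with earlier results of these data known. All 6 members were named, and from each list up to 6 genes called in any contrast, smallest adjusted p first, plus the 8 nearest profiles. Alternatives covered the pseudocount, filter, scaling, groups fitted, trend, threshold, summed copies and each library left out. One result of the telomere list is not reported here.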

Additional observations from a re-analysis of the deposited data

Results flagged for a closer look

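*Mir34a*, a microRNA gene in the list of repressors, passed the test for a different P53 effect in 2i and in serum (limma interaction, adjusted p = 0.000847). It was listed at 163 and 490 FPKM in WT serum and at 0 in the other 6 libraries. No effect in 2i was therefore measured, and the test restates the difference in serum, for which no fold is given. Whether the zeros of so short a gene are measured zeros was not tested.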

How the results depend on the processing

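No paired analysis was possible because the columns carry no replicate numbers, although the sample titles do, and name no clone. Column order could pair the P53-/- libraries only on the assumption that it follows the clones. A pairing of these libraries by clone could change the comparison of 2i with serum and was not tested. For loss of P53 in 2i, in serum and for the difference between them, 0 members were called under every alternative run (18, 18 and 17). For 2i over serum in WT cells, 1 member was called in the reported fit, 0 with a pseudocount of 1, no filter, quantile normalization, no trend, an adjusted p under 0.05 or summed copies, and 4 in a fit of WT libraries only. The count was 0 to 1 with a library left out, and 0 without any 1 of the 4 WT libraries. In P53-/- cells, 2 were called, 1 with no filter, no trend, an adjusted p under 0.05 or summed copies, and 0 in a fit of P53-/- libraries only. With a library left out it was 0 to 4: 0 without the second P53-/- 2i or the first P53-/- serum library, 1 without either WT serum library and 4 without the second P53-/- serum library. A lone library was assumed to vary like the other groups.

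With all libraries kept, 2 signs turned. *Zscan4c* in serum went to -0.99 for loss of P53 with a pseudocount of 0.01, and *Zscan4d* to 0.068 for the difference of the P53 effects with quantile normalization. With a library left out, loss of P53 in 2i ranged from -1.24 to 1.61 for *Zscan4c*, -0.77 to 2.23 for *Zscan4d*, -1.11 to 2.06 for *Tcstv1* and -1.41 to 2.20 for *Tcstv3*, and in serum from -1.53 to 1.86, -1.04 to 2.61, -1.01 to 1.60 and -3.13 to 0.38. The difference of these effects ranged from -1.68 to 1.72, -1.88 to 1.78, -1.40 to 1.76 and -0.040 to 3.57. For 2i over serum in P53-/- cells, *Zscan4c* ranged from -0.24 to 3.15 and *Zscan4d* from -0.80 to 2.86. Both were negative without the first P53-/- serum library, and *Zscan4d* also without the second P53-/- 2i library (-0.47). *Tcstv1* and *Tcstv3* stayed positive, from 1.18 to 4.35 and from 2.10 to 5.72. In WT cells these ranged from 1.90 to 3.27 and from 1.55 to 2.74. The cause of the turned signs was not tested. Over all genes, the calls ran from 193 (2i libraries only) to 1378 for loss of P53 in 2i, where the reported fit gave 1299, from 37 (serum libraries only) to 148 in serum beside 128, and from 16 (an adjusted p under 0.05) to 69 (without the first WT 2i library) for the difference beside 26. Levels in WT serum of 0 to 1.05 fragments for *Zscan4f* and *Zfp352* limit what can be said of them at this depth.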
